A study of Mus musculus with 4 samples.

Results

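In 4 single-cell libraries of mouse pancreatic islets, 10 genes of transcription factors of the immediate early class, which cells switch on soon after stimulation, were followed across cell classes. These 10 members were Npas4, Egr1, Egr4, Fos, Fosb, Fosl2, Jun, Junb, Nr4a1 and Klf2, found by symbol in each library among 32285 genes. Hspa1a and Hspa1b, which encode the inducible Hsp70 chaperones, were read beside them as 2 marks of handling stress. The islets came from male mice aged 8 weeks, in 4 groups of 1 library each. The first carried Tet2(flox/flox)Tet3(flox/flox) with Pdx1 cre+ (Cre-positive), and the second carried the same floxed alleles with Pdx1 cre- (Cre-negative). The third came from offspring of mothers with intrauterine hyperglycemia (IHG offspring), and the fourth from offspring of control mothers (control offspring). Pdx1-Cre acts in the pancreatic epithelium, so endothelial cells and macrophages are outside its known domain; its recombination was not tested here. How many mice went into a library is not stated, and with 1 library per group no difference below has a replicate check.

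Immediate early genes are transcribed by factors already present in the cell, without new protein synthesis, when calcium, cyclic AMP or growth factor signals reach the nucleus. In islet endocrine cells glucose-driven membrane depolarisation and calcium entry are a known stimulus, and Npas4 is among the factors most closely tied to calcium entry in neurons and beta cells. Warm enzymatic dissociation of tissue is also known to induce many of these genes together with heat shock genes. The islets here were released with collagenase, handpicked, cultured and then dissociated with trypsin at 37 °C before capture.

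The genes lie on separate chromosomes or far apart (GRCm38, GENCODE annotation). Npas4 is at chr19:4984355-4990316 on the minus strand, Fos at chr12:85473890-85477273 on the plus strand, Fosl2 at chr5:32135801-32157842 on the plus strand and Nr4a1 at chr15:101254269-101274795 on the plus strand. Egr4 is at chr6:85511121-85513589, Fosb at chr7:19302696-19310051, Jun at chr4:95049034-95052222 and Junb at chr8:84974484-84978718, all on the minus strand, and Klf2 is at chr8:72319033-72321656 on the plus strand. Jun overlaps the antisense gene Junos, Junb overlaps Prdx2 and Hspa1a overlaps Gm20481, each on the opposite strand. The sources used here do not say whether the counting used strand, so reads of such pairs may be shared. Hspa1a and Hspa1b are near-identical neighbours on chromosome 17, between which the counting could split reads, and are given together where possible.

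Promoter sequences of 9 of the 10 members and of both handling marks were taken from RefSeq (GRCm38.p6, printed in the direction of transcription). Each holds the 250 bases before a RefSeq start of the gene, which can differ from the GENCODE start above. For Npas4, Fosl2 and Nr4a1 the window lies inside the GENCODE gene. The bases before their GENCODE starts were therefore not searched. They are shown for Npas4, Fosl2 and Nr4a1, on which the comparisons turn, for Fos as the best known member, and for 1 handling mark. Capitals mark TGACG or its complement CGTCA, the core of the cyclic AMP response element, in Npas4 (chr19:4989972-4990221, minus strand), Fos (chr12:85473640-85473889, plus strand) and Nr4a1 (chr15:101266596-101266845, plus strand). Fosl2 (chr5:32136222-32136471, plus strand) had no such core and is printed without capitals. In Hspa1a (chr17:34972157-34972406, minus strand) capitals mark GAANNTTC, the core of the heat shock element.
Npas4: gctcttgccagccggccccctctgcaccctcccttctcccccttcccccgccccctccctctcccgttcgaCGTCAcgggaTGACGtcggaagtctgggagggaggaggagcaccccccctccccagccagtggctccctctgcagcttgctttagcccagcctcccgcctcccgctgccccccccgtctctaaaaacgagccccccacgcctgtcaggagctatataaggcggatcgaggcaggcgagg
Fos: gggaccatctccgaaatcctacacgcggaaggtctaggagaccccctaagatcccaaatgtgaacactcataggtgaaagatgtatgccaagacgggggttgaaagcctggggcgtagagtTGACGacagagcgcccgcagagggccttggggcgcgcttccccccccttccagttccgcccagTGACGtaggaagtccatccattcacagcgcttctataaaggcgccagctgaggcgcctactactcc
Nr4a1: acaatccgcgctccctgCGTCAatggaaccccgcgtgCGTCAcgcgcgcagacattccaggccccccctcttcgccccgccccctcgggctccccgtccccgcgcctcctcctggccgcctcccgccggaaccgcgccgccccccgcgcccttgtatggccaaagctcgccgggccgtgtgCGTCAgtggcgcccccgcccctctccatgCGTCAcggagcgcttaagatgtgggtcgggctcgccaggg
Fosl2: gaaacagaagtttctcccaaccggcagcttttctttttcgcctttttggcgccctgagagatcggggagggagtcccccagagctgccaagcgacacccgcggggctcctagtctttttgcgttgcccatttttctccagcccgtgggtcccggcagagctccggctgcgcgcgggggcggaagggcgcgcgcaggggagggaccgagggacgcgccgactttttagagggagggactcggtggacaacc
Hspa1a: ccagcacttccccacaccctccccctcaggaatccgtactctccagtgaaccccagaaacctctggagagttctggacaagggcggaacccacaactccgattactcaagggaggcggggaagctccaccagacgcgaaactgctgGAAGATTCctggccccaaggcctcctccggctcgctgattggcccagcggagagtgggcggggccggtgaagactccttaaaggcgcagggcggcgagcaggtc

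Searched on both strands, the core TGACG occurred 2 times in Npas4, Egr4 and Fos, 4 times in Nr4a1, and once in Fosb, Junb and Klf2, and was not found in Fosl2 or Jun or in either handling mark. It occurred in 17.7% of the 32817 promoters searched. The heat shock element core occurred once each in Fosl2, Jun, Hspa1a and Hspa1b and in 12.8% of all promoters. The TATA box core TATAA occurred in Npas4, Egr4, Fos and Klf2 and in 22.8% of all promoters. The full element TGACGTCA (1.55% of all promoters, overlapping the core), the AP-1 site TGANTCA (6.75%) and the CArG box (1.47%) were not found in these windows. Hspa1a and Hspa1b were identical at 247 of the 250 promoter bases. A match is a string of letters and not evidence of binding.

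The libraries held 10145 barcodes for Cre-positive, 6421 for Cre-negative, 12684 for IHG offspring and 16459 for control offspring islets, with 52489846 to 109110492 unique molecular identifiers (UMIs) each. After filters 5572 to 14730 cells per library were kept, and 0.903% to 2.04% of the smaller library's barcodes recurred in another library. Clusters were built without the members, the heat shock genes and other related genes, and were named from marker genes. Beta-like cells numbered 2576 in Cre-positive, 2722 in Cre-negative, 5615 in IHG offspring and 10366 in control offspring islets, with all 10 beta-cell markers at 20 CPM (UMIs of a gene per 1000000 UMIs of the class) or more in each. In these beta-like cells none of the 9 endothelial and none of the 9 macrophage markers reached 20 CPM. The Cre pair sat in different clusters: 93.8% of Cre-positive beta-like cells were in cluster 5 and 89.6% of Cre-negative ones in cluster 6, while the offspring libraries spread over clusters 0 (29.9% of IHG offspring and 57.5% of control offspring beta-like cells), 2 (31.7% and 22.0%) and 3 (28.8% and 17%). Levels below are CPM of UMIs summed over a class and are compared between libraries, not between genes. Intervals are 95% and cover counting error only; a gene was called higher or lower at a ratio of 1.5-fold or more with at least 20 CPM in 1 of the libraries compared.

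In beta-like cells of Cre-positive islets 7 of the 9 members that reached 20 CPM were higher than in Cre-negative ones, and none was lower. Among all 6407 genes that reached it, 7.54% were higher and 17.9% lower by the same rule. The members called higher were all 3 Fos family genes, both Jun family genes, Nr4a1 and Klf2, while Npas4 and Egr1 were past neither side of the rule. The median log2 ratio over all 10 members was 0.88, against -0.19 over all genes. Hspa1a and Hspa1b were also higher, so the handling marks and most members were high in the same library; per Hspa1 UMI only Fosl2, Fosb and Nr4a1 of the 7 stood higher, with values given further on.

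Genes of AP-1, the complex of Fos and Jun family proteins, come first. Fosl2, a Fos family partner of Jun proteins, stood at 49.1 CPM in Cre-positive, 3.42 in Cre-negative, 12.5 in IHG offspring and 11.5 in control offspring beta-like cells. The Cre-positive library was the highest and the Cre-negative the lowest, 14.4-fold apart (interval 11.8 to 17.7). Fosb, another Fos family member, stood at 1794 CPM in Cre-positive, 472 in Cre-negative, 405 in IHG offspring and 656 in control offspring beta-like cells. The Cre-positive library was the highest of the 4, at 3.80-fold over Cre-negative (3.73 to 3.87). Fos itself stood at 2284 CPM in Cre-positive, 1407 in Cre-negative, 1304 in IHG offspring and 1645 in control offspring beta-like cells, 1.62-fold higher in Cre-positive than Cre-negative. Jun, whose protein pairs with the Fos proteins, stood at 2545, 1292, 1121 and 1455 CPM in the same order of libraries. The Jun ratio of Cre-positive over Cre-negative was 1.97. Junb, a Jun relative known to restrain Jun, stood at 187 CPM in Cre-positive, 112 in Cre-negative, 89.0 in IHG offspring and 89.8 in control offspring beta-like cells, and was 1.67-fold higher in Cre-positive.

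Nr4a1, an orphan nuclear receptor induced by calcium and cyclic AMP, stood at 735 CPM in Cre-positive, 193 in Cre-negative, 221 in IHG offspring and 262 in control offspring beta-like cells. The other 3 libraries lay close together and Cre-positive was 3.81-fold over Cre-negative (3.71 to 3.93). Klf2, a zinc finger factor best known from endothelium, stood at 50 CPM in Cre-positive, 29.1 in Cre-negative, 22.8 in IHG offspring and 39.9 in control offspring beta-like cells. The Cre-positive level was 1.72-fold the Cre-negative one. Egr1, a zinc finger factor of the early growth response family, stood at 1271 CPM in Cre-positive, 1167 in Cre-negative, 668 in IHG offspring and 1015 in control offspring cells, so that the low library was IHG offspring. Its relative Egr4 did not reach 20 CPM in beta-like cells, at 8.10, 3.45, 1.01 and 1.42 CPM in the same order.

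Npas4, the calcium-dependent member that pairs with Arnt proteins, had another pattern. Its level was 109 CPM in Cre-positive, 101 in Cre-negative, 82.6 in IHG offspring and 256 in control offspring beta-like cells. The control offspring library was the highest, and the other 3 lay between 82.6 and 109 CPM. Control offspring stood 2.52-fold above Cre-negative, the 2 libraries without Cre or maternal treatment, where 3.74% of all genes were higher by the rule; Npas4 was the 1 member of 8 called higher there. Hspa1a was also called higher, at 1.79-fold, and Hspa1b stood just inside the rule, at 3320 CPM in control offspring and 2213 in Cre-negative cells. The genetic background of the libraries is not given in the labels.

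**Figure D1:**
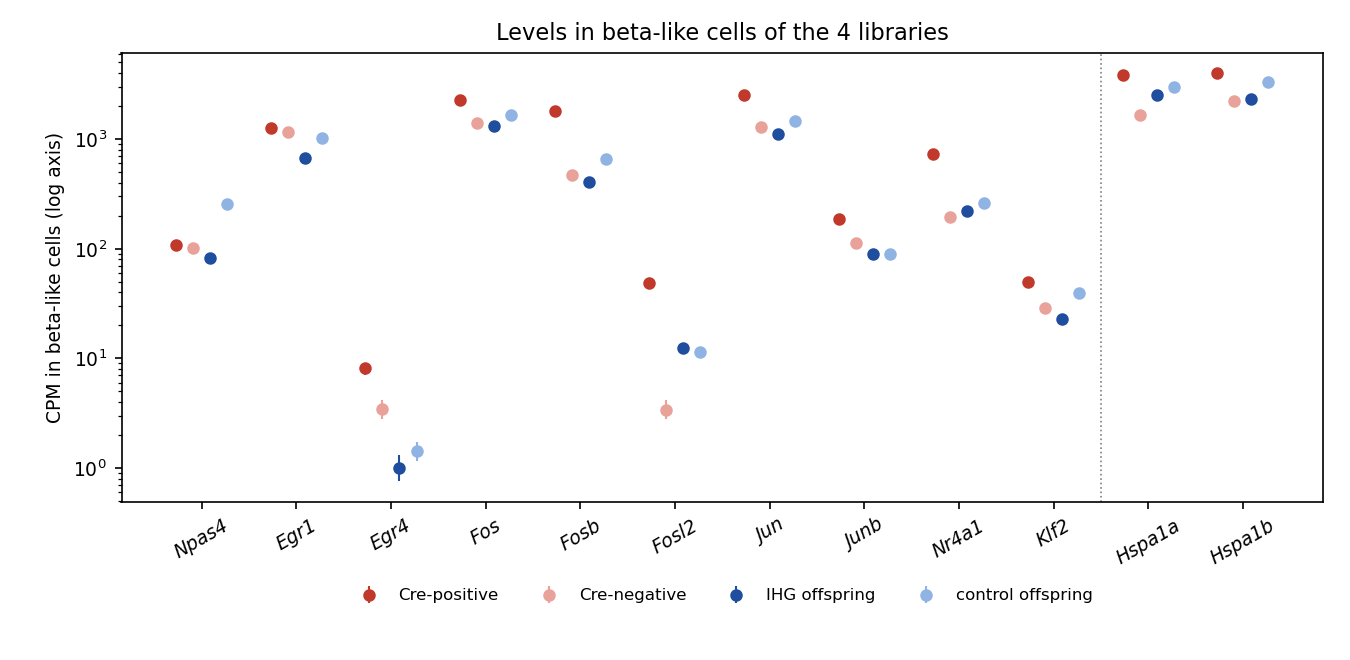
Level of each of the 10 members and of Hspa1a and Hspa1b in beta-like cells of the 4 libraries, in CPM on a log axis; points are class sums and bars 95% counting intervals, mostly smaller than the points. Fosl2, Fosb and Nr4a1 are highest in Cre-positive cells, at 49.1, 1794 and 735 CPM, and Npas4 is highest in control offspring cells, at 256 CPM.

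In beta-like cells of IHG offspring 4 of the 8 members that reached 20 CPM were lower than in control offspring and none was higher. Over all 5511 genes 0.708% were lower and 0.526% higher. The count was 1 within cluster 0, which held 29.9% of IHG offspring and 57.5% of control offspring cells. It was also 1 in cells with 6 to 15 Hspa1 UMIs. Both times Npas4 was the member that passed. Within cluster 2, by contrast, Fosb was 3.82-fold and Egr1 2.97-fold lower. Over all beta-like cells Npas4 was 3.10-fold lower (3.00 to 3.20), Klf2 1.75-fold, Fosb 1.62-fold and Egr1 1.52-fold lower. Jun at 1.30-fold, Fos at 1.26-fold, Nr4a1 at 1.19-fold and Junb at 1.01-fold lower were inside the rule. Hspa1a and Hspa1b were also inside it, at 1.19-fold and 1.43-fold lower. The median log2 ratio over the 10 members was -0.44, against -0.07 over all genes. Per 100 Hspa1 UMIs Npas4 had 1.71 UMIs in IHG offspring and 4.06 in control offspring beta-like cells. Fos, at 27.0 and 26.1, and Jun, at 23.2 and 23.1, were nearly level. Egr1, Egr4, Fosb and Klf2 stood lower on that scale, and Fosl2, Junb and Nr4a1 higher.

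Alpha-like cells, of which 7 of 7 alpha markers reached 20 CPM in each library, gave a different picture for the Cre pair. Of the 10 members 6 were lower in Cre-positive than Cre-negative cells and 1 higher, where 36.2% of 6808 genes were lower and 4.60% higher. Cre-negative alpha-like cells lay mostly in cluster 12 (782 of 967), whereas the 3 other libraries lay mostly in cluster 1, and the alpha markers summed to 29.3% of UMIs in Cre-positive and 13.8% in Cre-negative cells. Fos stood at 720 CPM in Cre-positive, 3220 in Cre-negative, 1485 in IHG offspring and 3128 in control offspring alpha-like cells. Cre-negative and control offspring were the high libraries, and Fos was 4.47-fold lower in Cre-positive than Cre-negative cells (4.35 to 4.59). Egr4 was 6.05-fold lower, at 22.7 against 137 CPM, Junb 3.16-fold, Egr1 2.50-fold, Npas4 2.07-fold and Nr4a1 1.64-fold. Fosl2 was 6.65-fold higher, at 79.4 CPM in Cre-positive and 11.9 in Cre-negative cells, as in beta-like cells. Hspa1a was 2.52-fold higher and Hspa1b 2.12-fold higher in Cre-positive cells, opposite in direction to the members that were lower. Scaled by the median of gene ratios in place of total UMIs, 5 members were lower and 2 higher.

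Among the 4 alpha-like profiles Egr1, Jun and Fosb were lowest in IHG offspring. Egr1 stood at 965 CPM in Cre-positive, 2414 in Cre-negative, 857 in IHG offspring and 2521 in control offspring alpha-like cells, high in Cre-negative and control offspring. Jun stood at 2160 CPM in Cre-positive, 2517 in Cre-negative, 1693 in IHG offspring and 4491 in control offspring cells, with control offspring above the rest. Fosb stood at 1631, 1317, 641 and 2258 CPM in the same order, and its Cre ratio of 1.24 was inside the rule. The leading genes of cluster 12 included Gcg, Pappa2 and Ghrl, the gene of ghrelin, and those of cluster 1 included Gcg, Pyy and Ppy.

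In alpha-like cells of IHG offspring all 10 members were lower than in control offspring, where 7.62% of 5817 genes were lower and 1.5% higher. Egr4 stood at 3.91 CPM in IHG offspring and 58.2 in control offspring cells, 14.9-fold lower (11 to 20.5). Nr4a1 was 4.00-fold, Fosb 3.52-fold, Klf2 3.08-fold and Egr1 2.94-fold lower. Npas4 stood at 163 CPM in IHG offspring and 447 in control offspring alpha-like cells, 2.74-fold lower, and its 447 CPM was the highest level of the gene in any class and library. Hspa1a was 2.49-fold and Hspa1b 3.02-fold lower in the same cells, and the members' levels per Hspa1 UMI are given further on.

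In delta-like cells, identified by Sst and other markers of which 5 of 6 reached 20 CPM (Lepr was low), 9 of 10 members were higher in Cre-positive than Cre-negative cells and none lower. Over 6944 genes 10.4% were higher and 13.9% lower. Fosb stood at 4739 CPM in Cre-positive, 560 in Cre-negative, 806 in IHG offspring and 2807 in control offspring delta-like cells, 8.47-fold higher in Cre-positive than Cre-negative. Fosl2 was 10.0-fold and Egr4 5.60-fold higher, on 24 and 32 UMIs in Cre-negative cells, with intervals of 6.57 to 15.9 and 3.83 to 8.43. Hspa1a stood at 16009 CPM in Cre-positive, 3091 in Cre-negative, 6300 in IHG offspring and 17853 in control offspring cells, so the handling marks were high in the same 2 libraries as Fosb. Per 100 Hspa1 UMIs Fosb had 14.5 UMIs in Cre-positive and 7.68 in Cre-negative cells, and Fosl2 and Egr4 also stood higher. Every other member stood lower in Cre-positive cells on that scale, such as Fos at 11.1 and 25.2 and Jun at 17.5 and 29.3. When the members were allowed to shape the clusters only 50 Cre-positive delta-like cells remained, and Npas4, Nr4a1 and Klf2 then lay lower. In delta-like cells of IHG offspring 9 of 9 members reaching 20 CPM were lower than in control offspring, where 10.3% of 6666 genes were lower and 2.33% higher, and Hspa1a was 2.83-fold lower. Per 100 Hspa1 UMIs Fos had 15.6 UMIs in IHG offspring and 10.1 in control offspring cells. Egr1, Jun, Fosl2, Junb and Nr4a1 also stood higher on that scale. Npas4, Fosb and Klf2 stood lower, Fosb at 6.66 and 7.66.

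In delta-like cells Fos, Jun and Nr4a1 were high in the same libraries as Fosb. Fos stood at 3639 CPM in Cre-positive, 1835 in Cre-negative, 1888 in IHG offspring and 3704 in control offspring delta-like cells. Jun stood at 5719 CPM in Cre-positive, 2137 in Cre-negative, 2437 in IHG offspring and 5497 in control offspring cells. For both genes Cre-positive and control offspring were the high libraries. Nr4a1 stood at 929 CPM in Cre-positive, 360 in Cre-negative, 252 in IHG offspring and 608 in control offspring cells. Junb, at 233 CPM in Cre-positive and 215 in Cre-negative cells, was the member inside the rule.

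**Figure D2:**
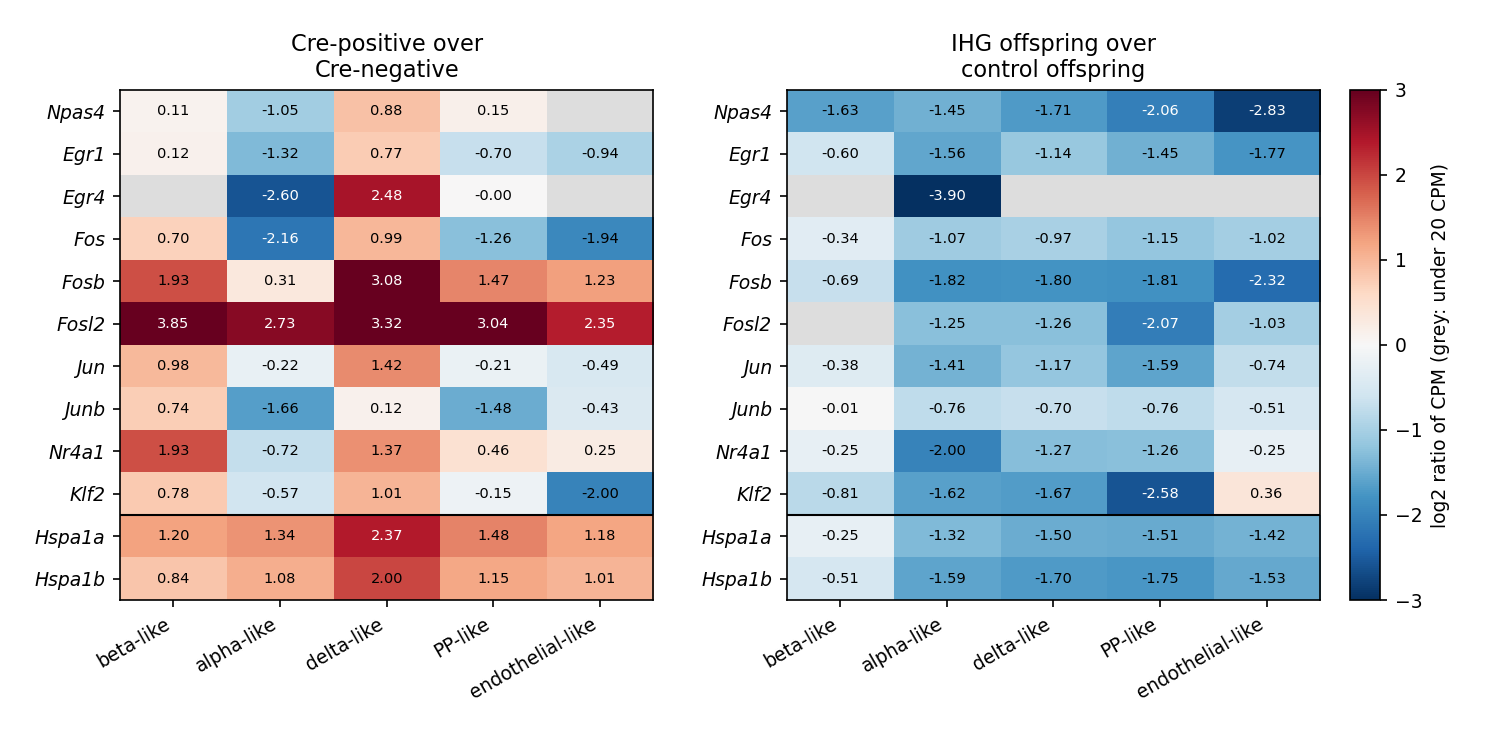
Log2 ratio of CPM for the 10 members and both handling marks (rows) in 5 cell classes (columns), Cre-positive over Cre-negative and IHG offspring over control offspring; red cells are higher in the group named first, blue ones lower, and grey ones reached 20 CPM in neither library. Fosl2 is positive in the 5 classes shown of the Cre pair, from 2.35 to 3.85 (macrophage-like cells, not shown, were at 0.07). Npas4 is negative in all 5 of the offspring pair, from -2.83 to -1.45. The -2.83 is that of endothelial-like cells and rests on 7 UMIs in IHG offspring and 73 in control offspring (3.28-fold to 18.3-fold lower).

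Endothelial-like cells, with 9 of 9 markers reaching 20 CPM and outside the known domain of Pdx1-Cre, also differed between the Cre libraries. They lay in different clusters, mostly 7 and 18 in Cre-positive and 15 in Cre-negative islets, and numbered 1729 and 202. IHG offspring cells lay mostly in clusters 15 and 7 and control offspring cells in 7 and 16, of which cluster 16 was led by Rgs5, a known pericyte marker. Of 8 members reaching 20 CPM 2 were higher in Cre-positive cells and 3 lower, where 14.8% of 7138 genes were higher and 30.7% lower, so the members' counts were near the background. Fosl2 stood at 781 CPM in Cre-positive, 153 in Cre-negative, 328 in IHG offspring and 671 in control offspring endothelial-like cells, 5.09-fold higher in Cre-positive than Cre-negative (4.10 to 6.40). Klf2, which endothelial cells are known to induce under blood flow, stood at 414 CPM in Cre-positive, 1654 in Cre-negative, 890 in IHG offspring and 694 in control offspring cells, 3.99-fold lower in Cre-positive. Fos was 3.85-fold lower. Of 9 members 6 were lower in IHG offspring than in control offspring endothelial-like cells, where 10.9% of genes were lower and 10.9% higher, and Hspa1a was 2.67-fold lower there.

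Nr4a1 varied little among the endothelial-like cells, at 2226 CPM in Cre-positive, 1872 in Cre-negative, 1615 in IHG offspring and 1925 in control offspring cells. Its ratio was inside the rule in both pairs. Fosb stood at 1281 CPM in Cre-positive, 544 in Cre-negative, 577 in IHG offspring and 2885 in control offspring endothelial-like cells, 2.35-fold higher in Cre-positive and 5.00-fold lower in IHG offspring. Hspa1a stood at 7385 CPM in Cre-positive, 3265 in Cre-negative, 2562 in IHG offspring and 6838 in control offspring cells, high in the same libraries as Fosb.

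The smaller classes are given as values. PP-like cells numbered 116 to 451 per library, and 3 of their 4 markers reached 20 CPM, or 2 in IHG offspring. Npas4 stood at 156 CPM in Cre-positive, 141 in Cre-negative, 82.7 in IHG offspring and 346 in control offspring PP-like cells, and 9 of 9 members reaching 20 CPM were lower in IHG offspring than in control offspring, where 18.9% of genes were lower and 9.14% higher. In the Cre pair 2 of 10 were higher and 3 lower in Cre-positive PP-like cells, where 8.89% of genes were higher and 23.1% lower. Macrophage-like cells numbered 52 to 682 per library, and in them Npas4 rested on 1 to 17 UMIs per library. Fosl2 stood at 215 CPM in Cre-positive and 205 in Cre-negative macrophage-like cells, inside the rule, unlike in the other classes described. Of 8 members reaching 20 CPM 5 were lower in Cre-positive macrophage-like cells and none higher, where 34.6% of genes were lower and 18% higher. Of 9 members 5 were lower in IHG offspring macrophage-like cells and none higher, where 26.7% were lower and 30.4% higher. In both pairs so many genes were past the rule in this class that its counts say little about the members.

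Npas4 was largely an endocrine gene in these cells. Over the 27 profiles of a class in a library, each of 50 cells or more, its 10 highest levels were in alpha-like, PP-like, beta-like and delta-like cells, with the exception of 1 macrophage-like profile of 17 UMIs. It stood at 5.02 CPM in Cre-positive, 5.48 in Cre-negative, 3.01 in IHG offspring and 21.4 in control offspring endothelial-like cells. The order within the endocrine profiles was not resolved everywhere: the intervals of Cre-positive delta-like cells (107 to 132 CPM) and Cre-positive alpha-like cells (119 to 133) overlap. Rims2, Neurod1, Myt1, 1500015A07Rik and Rimbp2 had the profiles most like that of Npas4 (Pearson r on log2(CPM + 5) from 0.92 to 0.95), and Snhg1, Ythdc1, Ddx5 and Srsf3 were among those most like the mean of the 10 members (0.75 to 0.77), among 9503 genes. The profiles share libraries and differ in depth, so these values describe them only. Among members, r was 0.86 for Fosl2 with Nr4a1, 0.85 for Junb with Klf2 and 0.84 for Egr1 with Jun; it was -0.71 for Npas4 with Junb. Against Hspa1a, r was 0.72 for Jun, 0.70 for Fosb and -0.07 for Npas4.

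**Figure D3:**
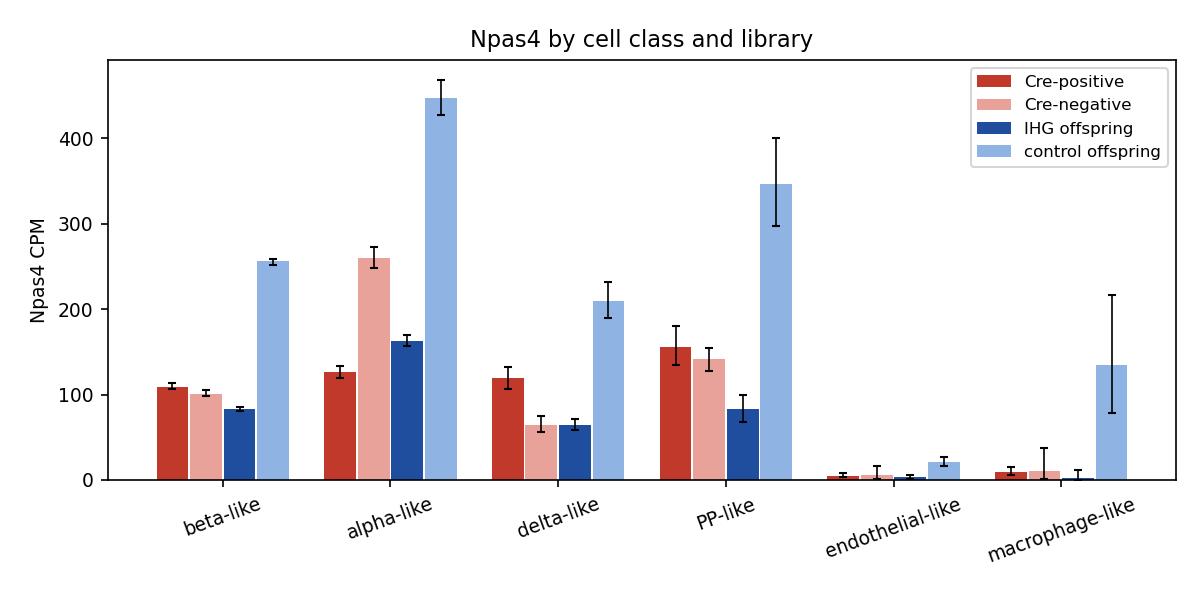
Npas4 level in 6 cell classes of the 4 libraries, in CPM on a linear axis from 0; bars are class sums and black lines 95% counting intervals. Alpha-like cells of control offspring reach 447 CPM, and endothelial-like cells stand at 3.01 to 21.4 CPM.

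Each beta-like cell was thinned to 3000 UMIs to compare cells across depths, which left out 58 to 262 cells per library. Npas4 was then detected in 22.7% of Cre-positive (interval 21.0 to 24.4), 18.2% of Cre-negative (16.7 to 19.7), 16% of IHG offspring (15 to 17) and 39.6% of control offspring (38.6 to 40.5) beta-like cells. Without thinning the shares were 48.4%, 31.6%, 29.6% and 54.7% in the same order. In endothelial-like cells thinned alike, which have a low level of the gene in CPM, the shares were 0.227%, 0%, 0.760% and 5.25% in that order, on 63 to 441 cells. Median depths of the whole classes were 2050 to 2426 UMIs per endothelial-like and 5859 to 10310 per beta-like cell, and the endothelial-like cells deep enough to be thinned had medians of 4166 to 4494. Unthinned, the endothelial-like shares were 1.16%, 1.49%, 0.861% and 4.32%. The 0% rests on 63 cells, and 3 counts over them would be a share of 4.76% with a UMI at this depth, which is no bound on cells that express the gene. Fosl2 was detected in 12.7% of Cre-positive, 1.13% of Cre-negative, 3.33% of IHG offspring and 2.93% of control offspring beta-like cells. Fos was detected in 93.1%, 86.9%, 66.4% and 85.8%, and Jun in 97.7%, 86.2%, 65.8% and 86.4%, in the same order. The IHG offspring library thus held the largest share of beta-like cells with no Fos or Jun UMI. In that library 88.8% of cells with an Npas4 UMI also had a Fos UMI, against 62.1% of cells with none; in control offspring cells the shares were 90.5% and 82.7%.

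Few beta-like cells held many Npas4 UMIs. Thinned cells with 5 or more were 0.322% of Cre-positive, 0.490% of Cre-negative, 0.378% of IHG offspring and 2.00% of control offspring cells. In IHG offspring cells Fosb was detected in 68.3% of cells with an Npas4 UMI and 35.6% of those without, and Nr4a1 in 51.5% and 29.9%. In Cre-positive cells Nr4a1 was detected in 69.4% of cells with an Npas4 UMI and 74.3% of those without, the other way round from IHG offspring cells.

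The handling marks split the beta-like cells of IHG offspring. Per 3000 UMIs the median of Hspa1a and Hspa1b together was 22 UMIs in Cre-positive, 11 in Cre-negative, 8 in IHG offspring and 16 in control offspring cells. Cells with 5 or fewer were 4.43%, 23.0%, 45.3% and 12.9% in the same order, and cells with 16 or more were 71.2%, 29.5%, 39.6% and 51.5%. The IHG offspring cells had a wide spread, with a lower quartile of 1 and an upper quartile of 26. The 10 members together had a median of 26 UMIs per cell in Cre-positive, 14 in Cre-negative, 8 in IHG offspring and 13 in control offspring cells. Cells with 5 or fewer member UMIs were 1.21%, 10.2%, 44.8% and 12.6% in that order.

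**Figure D4:**
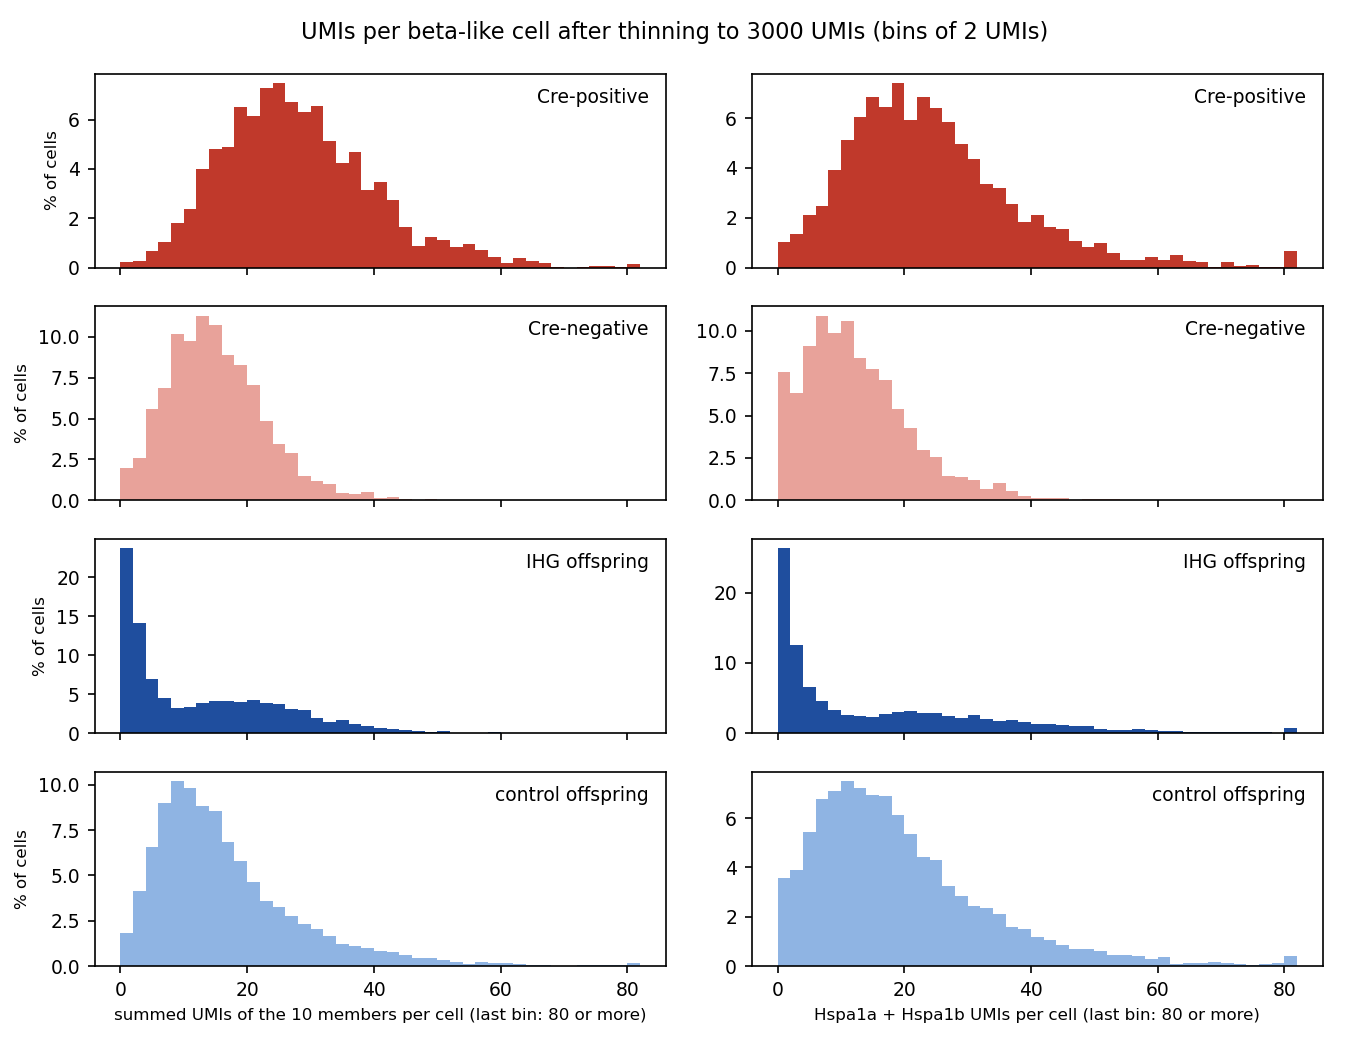
Distribution over beta-like cells, each thinned to 3000 UMIs, of the UMIs of the 10 members together and of the Hspa1a and Hspa1b UMIs together, as a percent of the cells of each library, in bins of 2 UMIs with a vertical scale of its own for each panel. IHG offspring cells pile up at the low end, where 44.8% have 5 or fewer member UMIs.

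Cells low in the handling marks were also low in the members in IHG offspring. Among beta-like cells with 5 or fewer Hspa1 UMIs, members had a median of 2 UMIs per cell in 2520 IHG offspring cells and 8 in 1307 control offspring cells. Of these cells 87.3% of IHG offspring and 33.4% of control offspring ones had 5 or fewer member UMIs. Of those IHG offspring cells 53.1% were in cluster 2, and their median depth was 9362 UMIs against 5532 in the control offspring ones. In cells with 16 or more Hspa1 UMIs the median was 22 member UMIs in IHG offspring and 18 in control offspring cells.

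Compared within bins of Hspa1 UMIs, the offspring difference depended on the bin for most members. In cells with no Hspa1 UMI Npas4 was 8.28-fold lower in IHG offspring than in control offspring, with 1 to 5 UMIs 8.19-fold, with 6 to 15 UMIs 1.58-fold and with 16 or more 2.09-fold. It was lower in each of the 4 bins. For Fos the log2 ratios in the same bins were -1.87, -1.38, 0.24 and 0.28, for Jun -1.85, -1.45, 0.27 and 0.22, and for Fosb -2.90, -2.64, -0.11 and -0.01. These members were lower in IHG offspring cells with few Hspa1 UMIs, and near or slightly above control offspring cells with many. Within cluster 0, the cluster that both offspring libraries share most, Npas4 stood at 160 CPM in IHG offspring and 288 in control offspring cells, with a log2 ratio of -0.85, whereas Egr1 was at -0.01 and Fosb at 0.04. In the other beta-like clusters, numbers 2, 3, 5, 6 and 17, the Npas4 log2 ratio lay between -2.89 and -1.60. Egr1 and Fosb were lower in IHG offspring in each of these too. They stood at -0.19 and -0.41 in cluster 5 and at -1.57 and -1.93 in cluster 2. The handling marks differed by cluster as well. Hspa1a and Hspa1b were at 0.39 and 0.15 in cluster 0 and at -1.45 and -1.73 in cluster 2. In alpha-like cells the interquartile ranges of Hspa1 UMIs did not overlap between the offspring libraries, with an upper quartile of 42 in IHG offspring and a lower quartile of 47 in control offspring cells, and 98.1% of control offspring cells had 16 or more, so the bins did not match the libraries. Per 100 Hspa1 UMIs Npas4 had 1.97 UMIs in IHG offspring and 1.97 in control offspring alpha-like cells, Jun 20.5 and 19.8, Fos 17.9 and 13.8, and Nr4a1 2.41 and 3.52. On that scale Npas4 and Jun were level, Fos stood higher and Nr4a1 lower in IHG offspring. Egr4, at 0.0473 and 0.257, and Fosb, at 7.75 and 9.97, also stood lower. Egr1, at 10.4 and 11.1, and Klf2, at 0.764 and 0.860, were slightly lower. Junb, at 1.62 and 0.998, and Fosl2, at 0.361 and 0.313, stood higher.

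The Cre difference in beta-like cells had the same sign in each bin for the members with the largest ratios. Fosl2 had log2 ratios of Cre-positive over Cre-negative of 3.88, 3.17 and 4.12 in cells with 1 to 5, 6 to 15 and 16 or more Hspa1 UMIs, and Fosb had 2.13, 1.80 and 1.70. Nr4a1 had 2.14, 1.73 and 1.88, Jun 0.78, 0.77 and 0.75, and Npas4 0.02, 0.15 and 0.18. In alpha-like cells Fos was at -1.40, -2.28 and -2.55 in the same bins and Egr1 at -1.72, -1.66 and -1.61. The beta-like ratios of Fosl2, Fosb, Nr4a1 and Jun were past the rule in each bin, in cells that lay mostly in clusters 5 and 6. Jun was the closest of these to the rule, at 1.72-fold, 1.71-fold and 1.68-fold. The bin of 16 or more is open-ended and did not match the libraries, since upper quartiles over all beta-like cells were 30 Hspa1 UMIs in Cre-positive and 17 in Cre-negative cells. In that bin Fos at 1.40-fold, Junb at 1.31-fold and Klf2 at 1.08-fold higher fell inside the rule. Per 100 Hspa1 UMIs Fosl2 had 0.629 UMIs in Cre-positive and 0.0881 in Cre-negative beta-like cells, Fosb 23.0 and 12.2, and Nr4a1 9.41 and 4.97. On the same scale Jun had 32.6 and 33.3, Fos 29.2 and 36.2, Junb 2.39 and 2.88, Klf2 0.640 and 0.748 and Npas4 1.40 and 2.61. Of the 7 members called higher by CPM, the 3 first named here were higher per Hspa1 UMI too, and the other 4 stood at or below the Cre-negative value.

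**Figure D5:**
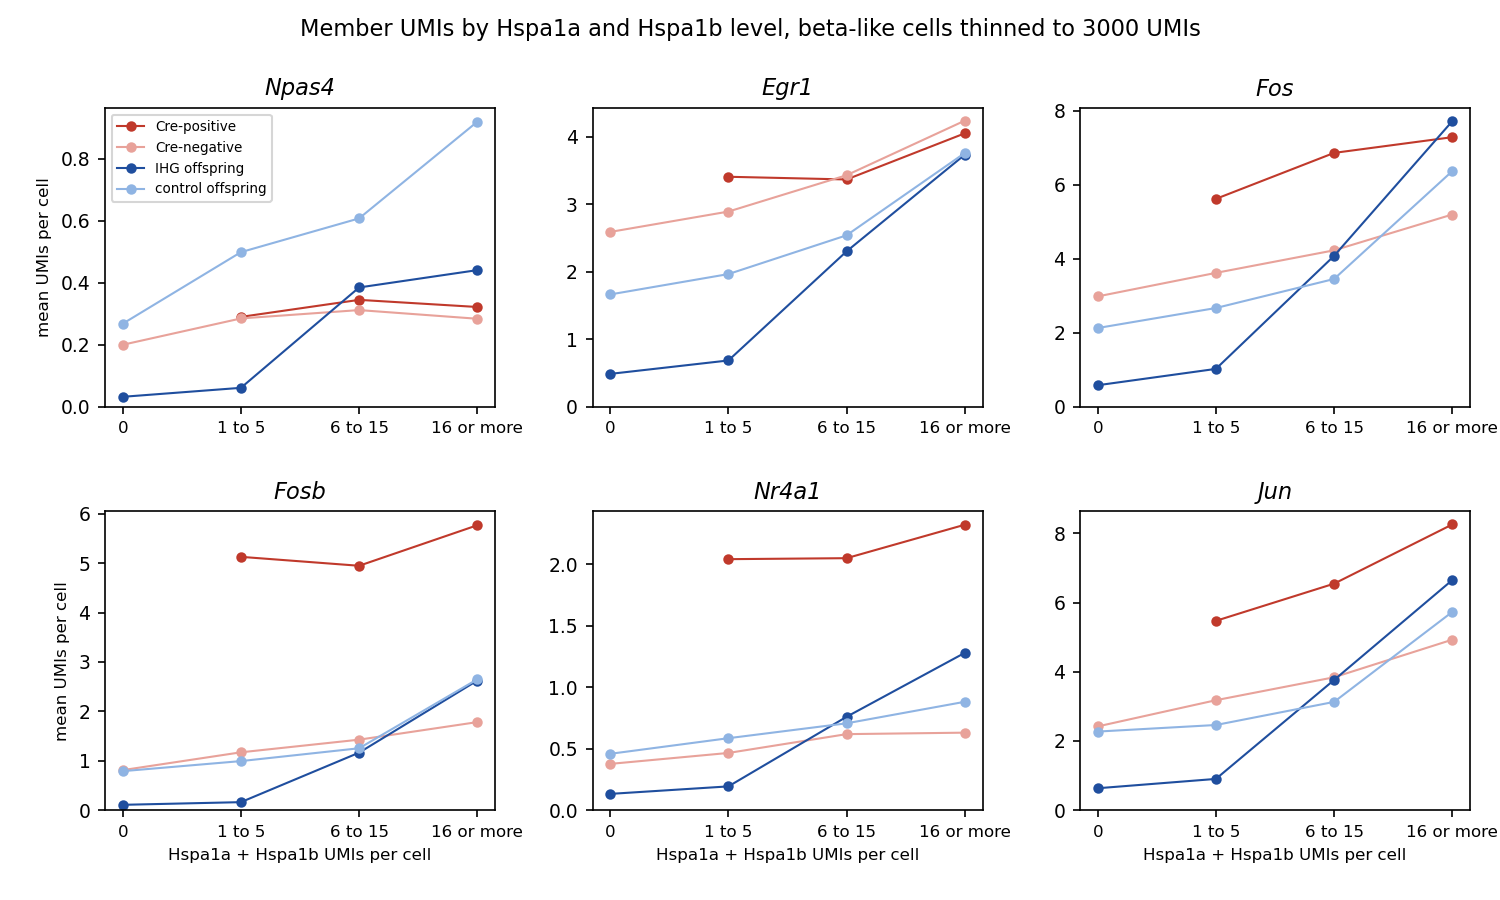
Mean UMIs per beta-like cell of Npas4, Egr1, Fos, Fosb, Nr4a1 and Jun, each cell thinned to 3000 UMIs, in 4 bins of its Hspa1a and Hspa1b UMIs, with a line per library and a vertical scale of its own for each gene; Cre-positive has no point at 0 for want of cells. Npas4 runs from 0.032 to 0.441 UMIs in IHG offspring and from 0.268 to 0.920 in control offspring cells, which are higher in every bin, whereas the Fos and Jun lines of the 2 libraries cross between the bins of 1 to 5 and 6 to 15 UMIs.

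Related genes were read from lists drawn up with earlier results of these data known. The counts stand against 7.54% higher and 17.9% lower over all genes of the Cre pair in beta-like cells. Of 19 other immediate early transcription factors measured in beta-like cells, 11 were higher in Cre-positive than Cre-negative cells and 1 lower. Atf3, a stress-induced factor of the ATF family, stood at 92.7 CPM in Cre-positive and 7.64 in Cre-negative cells, 12.1-fold higher, Maff was 4.11-fold and Nfil3 3.08-fold higher. Of 32 feedback and effector genes 11 were higher and 8 lower, among them Plk3, a stress kinase, 7.29-fold higher, and Ddit4, an inhibitor of mTOR signalling, 5.60-fold lower, at 42.8 CPM in Cre-positive and 240 in Cre-negative cells; Tiparp was 3.83-fold higher. Of 36 upstream regulators 3 were higher and 4 lower, near or below those shares, which is no result about the list. The 3 largest ratios in it were those of Srf, the serum response factor that acts on several immediate early genes, at 6.06-fold higher, Mef2c at 13.1-fold lower and Atf4 at 2.49-fold higher. Of 8 partners and corepressors 3 were higher, among them Fhl2 at 5.80-fold and Jund, a partner of Fos proteins, at 2.85-fold. Of 20 heat shock chaperones 16 were higher and none lower, led by Bag3 at 13.9-fold, Hsph1 at 6.22-fold and Dnaja1 at 3.74-fold.

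The same lists were read in IHG offspring beta-like cells, where 0.526% of all genes were higher and 0.708% lower. The immediate early and feedback lists held lower genes above that share. Of 14 other immediate early factors 3 were lower than in control offspring and none higher, namely Atf3, Bhlhe40 and Per2 at 1.73-fold, 1.71-fold and 1.64-fold lower. Of 26 feedback and effector genes 7 were lower and 1 higher: Ddit4 was 1.89-fold and Gem 1.71-fold lower, and Dusp26, a phosphatase, 1.74-fold higher. None of 31 upstream regulators, 5 partners and 20 heat shock chaperones was past the rule. In alpha-like cells of IHG offspring 7.62% of all genes were lower and 1.5% higher. There 15 of 17 other immediate early factors, 24 of 33 feedback genes and 17 of 20 chaperones were lower. Of 32 upstream regulators 2 were lower and 1 higher, near those shares, which is no result about the list.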

How the data were processed

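The authors deposited UMI counts per gene and cell barcode for 4 libraries, prepared with a microwell 3′ kit. Per the submitters' processing notes Cell Ranger, Seurat and mm10 were used; versions, annotation and strand were not given in the sources used. Barcodes under 500 genes or over 20% mitochondrial UMIs were dropped, and Scrublet scores removed the top 6% per library, since its automatic threshold marked 0% to 4.39%. Cells were clustered together (scanpy 1.11.5, 2000 variable genes, 30 components, 15 neighbours, Leiden resolution 1, leidenalg 0.10.2). The 157 member, handling mark and list genes were left out, and so were the mitochondrial genes. Clusters were named from marker lists, with at least 3 markers. Counts were summed per class and library and scaled to CPM. With 1 library per group no test was run: ratios carry exact conditional binomial 95% intervals, and genes were called at 1.5-fold and 20 CPM. UMI shares used cells thinned to 3000 UMIs and exact binomial intervals. Intervals came from scipy 1.17.1 in Python 3.11.15. The rule was run on simulated counts drawn from a single library profile with planted changes. Those counts hold counting error only, so they do not cover variation between libraries or mice. From each related list, the 3 genes with the largest ratio past the rule in beta-like cells are named, and all 10 members. Some genes that these rules name are not reported here. The members and lists were chosen with earlier results of these data known. Alternatives covered clustering, doublets, scaling, depth, mitochondrial share, Hspa1 UMIs and the rule itself.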

Additional observations from a re-analysis of the deposited data

Results flagged for a closer look

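Some members were higher in Cre-positive than Cre-negative cells in 1 class and lower in another by the 1.5-fold rule. With 1 library per group these differences between classes were not tested. All values are log2 ratios of Cre-positive over Cre-negative. Npas4 was at 0.88 in delta-like and -1.05 in alpha-like cells. Egr1 was at 0.77 in delta-like, -1.32 in alpha-like and -0.94 in endothelial-like cells. Egr4 was at 2.48 in delta-like and -2.60 in alpha-like cells. Fos was at 0.70 in beta-like and 0.99 in delta-like cells, and at -2.16 in alpha-like and -1.94 in endothelial-like cells. Junb was at 0.74 in beta-like and -1.66 in alpha-like cells. Nr4a1 was at 1.93 in beta-like, 1.37 in delta-like and -0.72 in alpha-like cells. Klf2 was at 0.78 in beta-like, 1.01 in delta-like and -2.00 in endothelial-like cells. The delta-like values of Npas4, Nr4a1 and Klf2 change sign when the members shape the clusters.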

How the results depend on the processing

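No paired analysis was possible because each group has 1 library. Of 958 alternatives for single members, 953 kept their direction or were not past 1.5-fold and 5 reversed. A change of sign by a ratio inside the rule was not counted as reversed. Of the same 958, 632 stayed within the counting interval of the main value. In beta-like cells the members higher in Cre-positive numbered 3 under a 2-fold rule. Those lower in IHG offspring numbered 1 under a 2-fold rule, 1 within the shared cluster 0, where Fosb turned to 0.04, 1 in cells with 6 to 15 Hspa1 UMIs (a setting chosen after seeing the data) and 7 in cells with no Hspa1 UMI; the cause was not tested. In alpha-like cells the members higher in Cre-positive numbered 2, against 5 lower, under median-of-ratios scaling and 2 under CPM without hormone and mitochondrial genes. With members included in the clustering, delta-like cells had 3 higher and 2 lower in Cre-positive, with Npas4 at -0.56, Nr4a1 at -0.97 and Klf2 at -0.64, on 50 Cre-positive cells. In endothelial-like cells with 6 to 15 Hspa1 UMIs 5 members were lower in Cre-positive, 3 were lower in IHG offspring and 1 was higher, and Jun turned to 0.23. With no CPM minimum 1 member, Egr4, was counted as higher in IHG offspring endothelial-like cells. It had 0 UMIs there and 2 in control offspring cells. That call came only from setting a count of 0 to 3 UMIs, so it shows no higher level. Median-of-ratios scaling centres on a median gene log2 ratio, which was -0.46 in alpha-like, -0.27 in endothelial-like and -0.19 in beta-like cells of the Cre pair and between -0.14 and 0.07 in the offspring pair. Offspring delta-like cells clustered per library, and cells with no Hspa1 UMI outside the beta-like offspring pair, were not run for want of cells. Depth limits Egr4 in beta-like cells and Npas4 in macrophage-like cells.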
